A study of Mus musculus with 12 samples.

Results

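Bone morphogenetic protein (BMP) ligands and the proteins that hold them back were described in mouse embryonic fibroblasts (MEFs) of 3 SIRT1 genotypes. The 10 genes are the ligands Bmp2, Bmp4, Bmp6, Bmp7, Gdf5 and Gdf6, the secreted antagonists Grem1, Nog and Chrdl1, and the membrane pseudoreceptor Bambi. They were chosen by gene name with earlier results of these same arrays in view, so their differences between genotypes are a description and not an independent test. All 10 names were found, on 14 of the 41174 non-control probes and among 27962 gene names.

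BMPs are secreted dimers of the transforming growth factor beta family that bind pairs of type I and type II serine/threonine kinase receptors, which phosphorylate SMAD1, SMAD5 and SMAD9. These enter the nucleus with SMAD4 and switch on genes such as the Id family and the inhibitory Smad6. Extracellular antagonists bind the ligands and keep them from the receptors, and in connective tissue the balance of ligands and antagonists is known for guiding bone, cartilage, fat and smooth muscle fates.

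RNA was measured on 12 1-colour Agilent arrays, 4 for wild type cells (WT), 4 for cells heterozygous for SIRT1 (Het) and 4 for SIRT1 knockout cells (KO). SIRT1 is an NAD-dependent protein deacetylase, and MEFs are connective tissue cells grown from embryos. All cultures are female in the labels and were grown without special treatment in DMEM with 25 mM glucose, 4 mM glutamine and 10% serum. Neither the deleted part of Sirt1 nor the origin of replicate arrays in separate cultures is stated in the labels. P-values therefore reflect the spread among these arrays, which may be technical. Arrays carry the replicate numbers of the labels. WT arrays are numbered 1, 2, 3 and 5, arrays of the other genotypes are numbered 2, 3, 4 and 5, and values below follow that order. A level is the log2 processed signal of a probe relative to the 75th percentile of its array, so 0 equals that percentile, and levels of different probes are not compared. A probe entered the test when the extraction software marked it as well above background throughout a genotype, in 1 genotype or more. That held for 25600 probes and for 7 member probes, 1 each of Bmp4, Bmp6, Gdf5, Gdf6, Grem1, Nog and Bambi. Genotypes were compared with limma across all tested probes. Differences with a Benjamini-Hochberg adjusted p under 0.05 are termed called.

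The arrays numbered 3 stood apart in every genotype. Correlations between arrays of a genotype over all tested probes were 0.923 to 0.970 with number 3 and 0.969 to 0.998 without it. On the array labelled WT replicate 3, the inactive X chromosome transcript Xist was at −2.94, against 1.66 to 3.42 elsewhere, and the Y-linked gene Ddx3y was at 1.04, against −4.35 or less, so this array goes against its female label. The targeted gene was lower in KO at 1 Sirt1 probe (−0.47 ± 0.29, SD, against 0.36 ± 0.21 in WT and 0.37 ± 0.03 in Het, n = 4) and not at the other (0.81, 0.79 and 0.87). Without the arrays numbered 3, 3 arrays a genotype remained and 11 member probes could be tested, the added ones being Bmp2, the second Bmp6 probe and both Chrdl1 probes. Results are therefore given with and without these arrays. Gdf6 passed the filter only through WT. Without number 3 the dimmer Bmp6 probe passed only through Het, and both Chrdl1 probes only through KO. Each was highest in that genotype, so the filter favoured that direction and their p-values are a description.

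Bmp4 was lower in Het than in both other genotypes, and this difference held with and without the arrays numbered 3. Gdf6 and Grem1 were lower in KO than in WT on every array, and Gdf5 was higher in KO than in Het on every array. Bmp2, Bmp6 and Chrdl1 differed between genotypes on the 9 arrays not numbered 3 but went another way on number 3 in 1 comparison or more. With all 12 arrays, 1 of 7 member probes was called in Het against WT (Bmp4, down), 1 in KO against WT (Gdf6, down) and 1 in KO against Het (Bmp4, up). The shares of all tested probes called were 1.09%, 1.5% and 0.816%. Without the arrays numbered 3, 6 of 11 member probes were called in each of the 3 comparisons, where 10.2%, 15.4% and 7.82% of all tested probes were. These comparisons share arrays and are not independent of each other, and nothing is read from the members' counts since the members were chosen with such differences known.

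Genotypes did not overlap at 1 of 7 member probes in Het against WT, 2 in KO against WT and 2 in KO against Het, beside 8.68%, 8.65% and 9.93% of all tested probes. Without the arrays numbered 3 the counts were 7, 7 and 9 of 11, beside 30.1%, 34.6% and 34% of all tested probes.

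**Figure D1:**
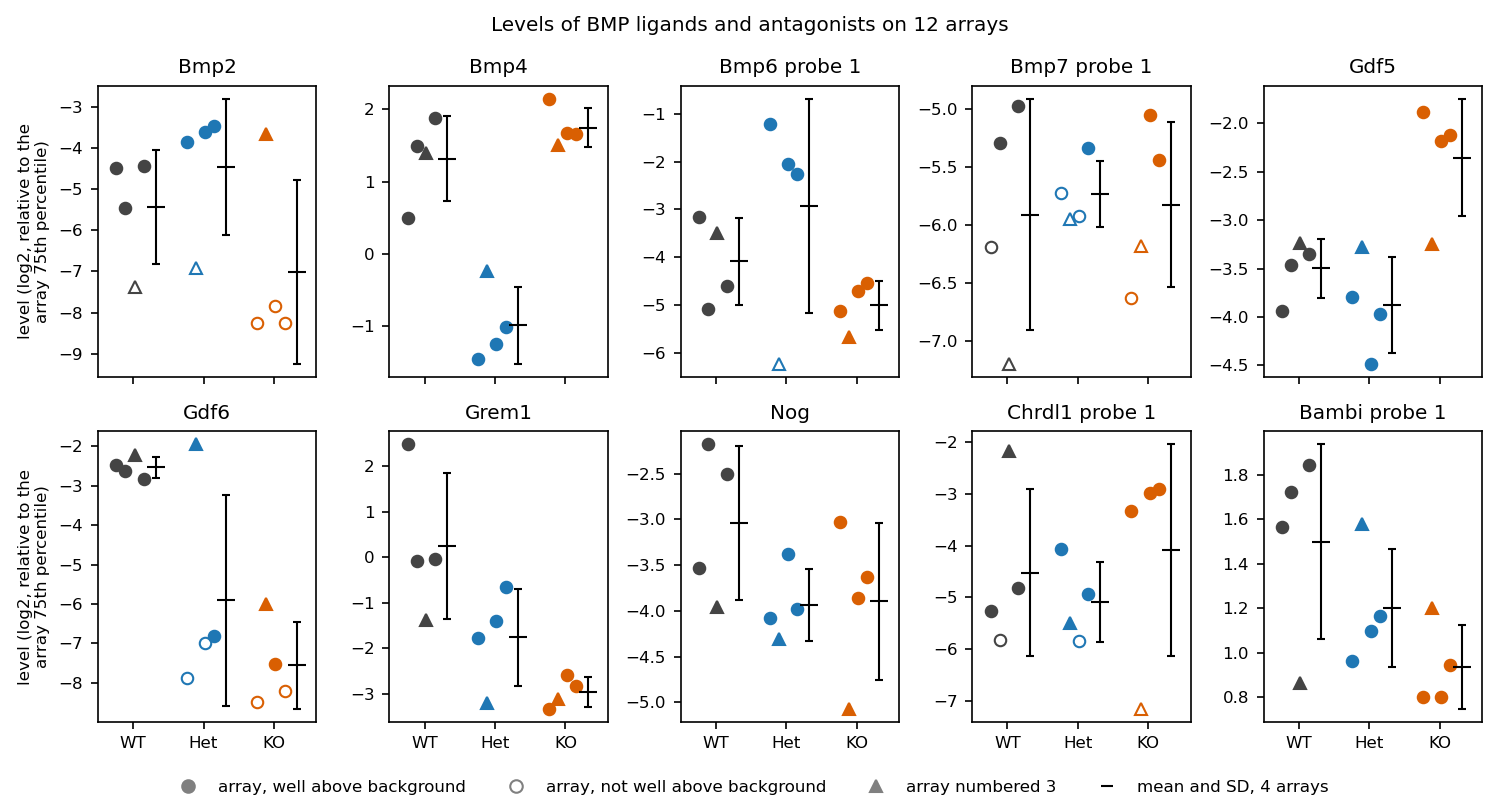
Level of each member's brightest probe (log2, relative to the array's 75th percentile) on every array by genotype, with triangles for arrays numbered 3, open symbols for arrays not well above background, and a bar for the mean and SD of the 4 arrays. Bmp4 sits between −1.46 and −0.24 in Het and at 0.49 or above elsewhere. For Bmp2 the triangles lie far from the other arrays of their genotype, as they do for Chrdl1 in WT and KO but not in Het.

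Bmp4 encodes a ligand of early mesoderm, limb and skeletal development. Its probe lies at chr14:41704207-41704266 on the minus strand in the array files' mm7 coordinates. The probe is shown because the clearest member difference rests on it, and it has no capitals since no motif was searched in it.
Bmp4 probe: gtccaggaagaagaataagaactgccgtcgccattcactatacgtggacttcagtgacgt
Bmp4 stood at 0.49, 1.50, 1.39 and 1.88 on the WT arrays. Het arrays read −1.46, −0.24, −1.25 and −1.01. KO arrays read 2.14, 1.51, 1.68 and 1.66. Every Het array lay below every WT and every KO array, while WT and KO overlapped. Het was below WT by 4.94-fold (−2.31, SE 0.32, limma adjusted p = 0.0123, exact two-sided permutation p = 0.0286, the smallest that 4 against 4 arrays allow). KO was above Het by 6.66-fold (2.74, SE 0.32, limma adjusted p = 0.00444). KO and WT differed by 0.43 (SE 0.32, limma adjusted p = 0.561), so the order was KO and WT, not apart beyond their spread, then Het.

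Without the arrays numbered 3, Bmp4 differed by −2.53 in Het against WT (SE 0.33, limma adjusted p = 0.00251) and by 3.06 in KO against Het (SE 0.33, limma adjusted p = 0.000856). The arrays lay on 4 slides, and within the 2 slides that held WT and Het arrays the difference was −2.90 and −2.89. KO against Het within the 3 slides that held both gave 2.25, 3.60 and 2.68. Number 3 had the smallest differences, −1.63 in Het against WT and 1.75 in KO against Het.

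Smooth muscle and pericyte markers were read beside Bmp4. In Het against WT 0 of 5 tested markers were higher (median difference −1.08 beside 0.02 over all probes), and in KO against Het 5 of 5 were higher (median 0.84). In KO against WT, where Bmp4 was 0.43 higher, 0 of 5 were higher (median −0.49). Without number 3, 0 of 6 were higher in Het and 0 of 6 in KO against WT, and 4 of 6 were higher in KO against Het (medians −1.91, −1.0 and 0.60). Of these, 5, 3 and 2 were called by limma, beside 10.2%, 15.4% and 7.82% of all tested probes. Cnn1, a calponin of contractile cells, was the 1 of 5 markers called with all arrays, in Het against WT (−3.72, SE 0.56, limma adjusted p = 0.0164) and in KO against Het (2.90, SE 0.56, limma adjusted p = 0.0373). Both calls were lost with slide as a block (limma adjusted p = 0.0973 and 0.115), and that in KO against Het also with normexp background correction (limma adjusted p = 0.0504). The summed level of the 7 listed markers ran from 6.35 to 8.62 in WT, 6.35 to 7.09 in Het and 7.24 to 7.43 in KO, and none of the 7 was at background on all arrays. Their part in the Bmp4 difference was not tested, and in these bulk samples fewer cells of a type and less RNA per cell cannot be told apart.

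Bmp6 encodes a ligand known for endochondral bone and for iron control in the liver. Its brighter probe, at chr13:37918503-37918562 on mm7, read −3.15, −5.08, −3.49 and −4.60 in WT. Het arrays read −1.22, −6.22, −2.05 and −2.25, and the −6.22 of number 3 was not well above background. KO arrays read −5.11, −5.66, −4.70 and −4.53. Het number 3 was the lowest of all 12 arrays and the other 3 Het arrays were the highest, so with all arrays the genotypes overlapped. Het against WT was 1.15 (SE 0.89, limma adjusted p = 0.566) and KO against Het −2.07 (SE 0.89, limma adjusted p = 0.414). Without the arrays numbered 3 Het was above WT by 5.42-fold (2.44, SE 0.48, limma adjusted p = 0.0149) and KO below Het by 7.68-fold (−2.94, SE 0.48, limma adjusted p = 0.00643). Leaving out Het number 3 alone was enough for both calls (limma adjusted p = 0.0422 and 0.00799). KO and WT differed by −0.50 without number 3 (SE 0.48, limma adjusted p = 0.535). The dimmer Bmp6 probe, well above background on 6 of 12 arrays, gave 2.05 (SE 0.38, limma adjusted p = 0.0113) and −2.53 (SE 0.38, limma adjusted p = 0.00424) in the same fit.

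Over the 9 arrays not numbered 3, Bmp4 and Bmp6 thus had opposite orders, Bmp4 lowest and Bmp6 highest in Het. Pearson's r between the 2 probes was −0.98 over these arrays and −0.71 over all 12, given as a description, since the arrays share genotypes and scaling. Their promoters are shown to compare these ligands, as the 250 bases before the transcription start from RefSeq on GRCm38.p6, which held such a window for 3 of the 10 members. Capitals mark matches to 5 short motifs searched on both strands, the GC box GGGCGG, the E-box CACGTG, the GC-rich SMAD motif GGCGCC, the TATA box TATAAA and the CCAAT box CCAAT. Bmp4 lies at chr14:46390670-46390919 on the minus strand and Bmp6 at chr13:38345466-38345715 on the plus strand.
Bmp4 promoter: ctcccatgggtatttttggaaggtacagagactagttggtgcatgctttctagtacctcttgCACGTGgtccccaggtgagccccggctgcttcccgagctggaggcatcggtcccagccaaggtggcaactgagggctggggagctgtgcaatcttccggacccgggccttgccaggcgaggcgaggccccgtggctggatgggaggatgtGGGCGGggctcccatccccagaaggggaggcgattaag
Bmp6 promoter: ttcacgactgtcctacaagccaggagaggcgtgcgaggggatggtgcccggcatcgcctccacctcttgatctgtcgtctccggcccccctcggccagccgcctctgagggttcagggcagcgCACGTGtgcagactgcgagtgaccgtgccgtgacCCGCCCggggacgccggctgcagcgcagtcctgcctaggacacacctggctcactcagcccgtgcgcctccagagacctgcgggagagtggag
Both windows held 1 GC box, whose leftmost base was 38 bases before the start in Bmp4 and 93 in Bmp6, where it is on the other strand. Each also held 1 E-box, 188 bases before the start in Bmp4 and 127 in Bmp6. Of 32851 promoter windows of this length, 32.7% held a GC box and 6.02% an E-box. These matches describe letters only.

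Bmp2 encodes a close relative of Bmp4 and a strong inducer of bone. Its probe, at chr2:133302098-133302157 on mm7, read −4.48, −5.46, −7.38 and −4.43 in WT. Het arrays read −3.85, −6.93, −3.60 and −3.47. KO arrays read −8.26, −3.66, −7.85 and −8.25. Number 3 was the lowest array in WT and Het, where it was not well above background, and by far the highest in KO, where it was the single array well above background. The probe was not tested with all 12 arrays. Without number 3 the genotypes did not overlap, and Het was above WT by 2.22-fold (1.15, SE 0.28, limma adjusted p = 0.0357). KO, with 0 of 3 arrays well above background, was at least 5.94-fold lower than WT and at least 13.2-fold lower than Het, a bound that sets KO at the lowest signal of probes well above background where that exceeded its own. The fitted differences were −3.33 (SE 0.28, limma adjusted p = 0.000196) and −4.48 (SE 0.28, limma adjusted p = 7.38e-05). At number 3 KO was instead above WT by at least 5.67-fold and above Het by at least 4.74-fold, by the same bound on 1 array each (measured differences 3.72 and 3.27).

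Bmp7, a ligand of kidney and eye development, was near background. Its 2 probes were well above background on 5 and 1 of 12 arrays, with levels of −7.19 to −4.97 and −8.16 to −6.69. The genotypes overlapped at both probes in each of the 3 comparisons, with and without the arrays numbered 3.

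Gdf5 encodes a ligand of joint formation and of early cartilage. Its probe, at chr2:155682109-155682164 on mm7, read −3.93, −3.47, −3.23 and −3.35 in WT. Het arrays read −3.79, −3.27, −4.48 and −3.96. KO arrays read −1.88, −3.24, −2.18 and −2.12. KO lay above every Het array, and 3 of 4 KO arrays lay above every WT array. KO number 3, at −3.24, sat among the WT arrays. KO against Het was 1.52 (SE 0.32, limma adjusted p = 0.0567, exact permutation p = 0.0286) and KO against WT 1.14 (SE 0.32, limma adjusted p = 0.112). Without number 3, KO was 4.06-fold above Het (2.02, SE 0.23, limma adjusted p = 0.0010) and 2.88-fold above WT (1.52, SE 0.23, limma adjusted p = 0.00322). Leaving out WT 3, Het 3 or KO 3 alone was enough for the call against Het (limma adjusted p = 0.0460, 0.0227 and 0.00836), and leaving out KO 3 for that against WT (limma adjusted p = 0.0215). The 3 arrays numbered 3 read within 0.04 of each other. Cartilage markers were higher in KO than in WT at 6 of 6 tested genes (median 1.01 beside 0.04 over all probes), with 0 called by limma and 0 at an unadjusted p under 0.05. They were also higher at 6 of 6 in Het against WT (median 0.73), where Gdf5 was 0.38 lower, and at 4 of 6 in KO against Het (median 0.31). Without number 3 the counts were 6, 6 and 4 of 6 in KO against WT, Het against WT and KO against Het, with 2, 1 and 1 called by limma. The shares of all tested probes called in these were 15.4%, 10.2% and 7.82%. Their summed level ran from 0.33 to 2.40 in WT and 1.11 to 1.88 in KO, Matn1 and Cnmd were well above background on 0 arrays, and their part in the Gdf5 difference was not tested.

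Gdf6 encodes a ligand close to Gdf5, known for joints, the skull and the eye. Its probe, at chr4:9789396-9789455 on mm7, read −2.48, −2.63, −2.21 and −2.82 in WT. Het arrays read −7.88, −1.95, −6.98 and −6.82. KO arrays read −8.48, −6.01, −7.52 and −8.19. Het number 3 was the highest of all 12 arrays, while the other Het arrays and the KO arrays lay far below WT, with 2 of 4 arrays well above background in each of Het and KO. KO was below WT by 32.3-fold (−5.01, SE 1.05, limma adjusted p = 0.0415, exact permutation p = 0.0286), a size that rests partly on signals near background. This call was lost with slide as a block (−5.75, limma adjusted p = 0.0753), and with normexp background correction (−2.18, limma adjusted p = 0.183), while within the 2 slides that held both genotypes the difference was −6.05 and −5.04. It was also lost when any 1 array was left out other than WT 3, Het 2, Het 3 or KO 3 (limma adjusted p up to 0.142). Het against WT was −3.37 (SE 1.05, limma adjusted p = 0.154) with all arrays. Leaving out Het 3 alone gave −4.69 (limma adjusted p = 0.00263). Without number 3 it was −4.58 (SE 0.32, limma adjusted p = 0.000106), KO against WT was −5.42 (SE 0.32, limma adjusted p = 3.46e-05), and 1 of 3 arrays was well above background in each of Het and KO. KO and Het differed by −0.84 there (SE 0.32, limma adjusted p = 0.174).

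Grem1 encodes gremlin 1, a secreted antagonist that binds BMP2, BMP4 and BMP7. Its probe lies at chr2:113599308-113599367 on mm7. WT arrays read 2.48, −0.10, −1.37 and −0.03. Het arrays read −1.78, −3.20, −1.41 and −0.65. KO arrays read −3.33, −3.12, −2.59 and −2.83. All KO arrays lay below all WT arrays, and Het lay between them, overlapping both. KO was below WT by 9.26-fold (−3.21, SE 0.71, exact permutation p = 0.0286), which just missed the threshold in the fit (limma adjusted p = 0.0510). Without number 3 it was called (−3.70, SE 0.65, limma adjusted p = 0.00664), and Het against WT was −2.06 (SE 0.65, limma adjusted p = 0.0817). Leaving out WT 3 or Het 3 alone was enough for the call in KO (limma adjusted p = 0.00993 and 0.0370), and leaving out WT 3 for one in Het (limma adjusted p = 0.0467). No other left-out array gave a call against WT. Over the 12 such fits KO against WT ran from −3.75 to −2.47 (limma adjusted p up to 0.146, 2 called). Het against WT ran from −2.54 to −1.26 (limma adjusted p up to 0.422, 1 called). WT 1, at 2.48, was the highest of all 12 arrays. Within the 2 slides that held both, KO against WT was −2.59 and −2.68.

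The Grem1 promoter is shown beside the 2 ligand promoters because Grem1 had the largest difference with all 12 arrays among the secreted antagonists that are members. It lies at chr2:113758649-113758898 on the minus strand of GRCm38.p6, with capitals for the same motifs.
Grem1 promoter: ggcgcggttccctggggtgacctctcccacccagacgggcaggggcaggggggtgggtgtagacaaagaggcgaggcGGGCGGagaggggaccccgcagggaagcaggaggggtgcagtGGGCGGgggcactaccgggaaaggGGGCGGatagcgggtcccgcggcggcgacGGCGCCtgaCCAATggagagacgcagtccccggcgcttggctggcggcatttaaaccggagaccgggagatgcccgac
It held 3 GC boxes, 173, 131 and 107 bases before the start, 1 CCAAT box at 69, and 1 GC-rich SMAD motif GGCGCC at 78, which 9.59% of the 32851 windows held. CCAAT was held by 33.8% and TATAAA by 12.4%.

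Nog encodes noggin, an antagonist that seals BMP4 from its receptors. Its probe lies at chr11:89410574-89410633 on mm7 and is shown since it reads the member that is known as an inhibitor of the ligand above.
Nog probe: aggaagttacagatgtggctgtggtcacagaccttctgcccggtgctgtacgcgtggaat
WT arrays read −3.53, −2.18, −3.96 and −2.50. Het arrays read −4.08, −4.30, −3.38 and −3.98. KO arrays read −3.03, −5.07, −3.86 and −3.63. All genotypes overlapped and number 3 was the lowest array in each of them. Het against WT was −0.89 and KO against WT −0.85 (SE 0.47 each, with limma adjusted p of 0.377 and 0.402), and neither was called without number 3 (−1.08 and −0.77, SE 0.37, limma adjusted p = 0.112 and 0.209). A p above the threshold does not show that the genotypes were alike.

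Chrdl1 encodes chordin-like 1, a secreted BMP antagonist of the eye and skeleton. Its brighter probe, at chrX:137951960-137952019 on mm7, read −5.27, −5.82, −2.16 and −4.83 in WT. Het arrays read −4.06, −5.50, −5.84 and −4.94. KO arrays read −3.33, −7.16, −2.98 and −2.90. Number 3 was the highest WT array and the lowest KO array, and without it all KO arrays lay above all WT and Het arrays. There KO was 4.72-fold above WT (2.24, SE 0.43, limma adjusted p = 0.00979) and 3.68-fold above Het (1.88, SE 0.43, limma adjusted p = 0.0302). The dimmer probe, at chrX:137963375-137963434, gave 1.31 in KO against WT (SE 0.76, limma adjusted p = 0.293) and at least 1.87-fold against Het, where 0 of 3 arrays were well above background.

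Bambi encodes a transmembrane pseudoreceptor that lacks the kinase domain and is itself switched on by BMP signals. Its brighter probe read 1.57, 1.72, 0.86 and 1.84 in WT. Het arrays read 0.96, 1.58, 1.10 and 1.17. KO arrays read 0.80, 1.20, 0.80 and 0.94. Number 3 was the lowest array in WT and the highest in Het and KO. With all arrays KO against WT was −0.56 (SE 0.22, limma adjusted p = 0.241), which was called when WT 3 alone was left out (−0.77, limma adjusted p = 0.0226). Without number 3 the 3 genotypes did not overlap, and Bambi fell in Het by 0.64 (SE 0.14, limma adjusted p = 0.0207) and in KO by 0.86 on the log2 scale (SE 0.14, limma adjusted p = 0.00416) against WT. Its other probe was well above background on 0 of 12 arrays.

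**Figure D2:**
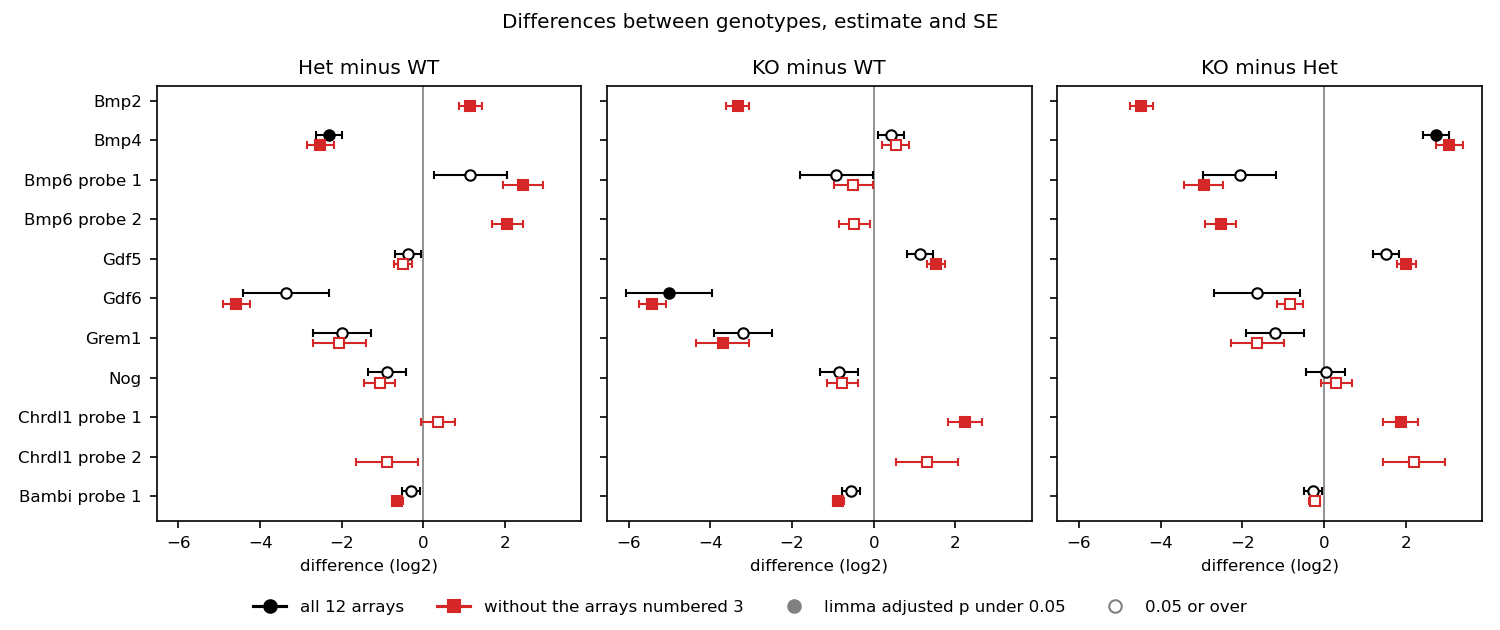
Differences between genotypes (log2) with their SE at the 11 member probes testable without the arrays numbered 3, in black for all 12 arrays and in red without number 3, filled where the limma adjusted p was under 0.05. Bmp4 is filled in both fits for Het against WT and KO against Het, while Bmp2, Bmp6, Gdf5, Grem1, Chrdl1 and Bambi are filled in red alone and Gdf6 in both for KO against WT.

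Number 3 was compared with the other numbers in a fit with genotype as a covariate, where Gdf6 was the 1 of 7 member probes called (2.59 higher, SE 0.66, limma adjusted p = 0.0390) beside 7.6% of all tested probes. This call was lost with slide as a block (2.36, limma adjusted p = 0.134), where Nog was called instead (−1.58, limma adjusted p = 0.0461). It was also lost with normexp background correction (1.07, limma adjusted p = 0.304), and when any 1 array was left out other than WT 1, WT 3 or KO 3 (limma adjusted p up to 0.116). With all arrays and no block Nog differed by −1.09 (SE 0.31, limma adjusted p = 0.0590). Number 3 lay beyond the other arrays of its genotype in 18 of the 21 groups of tested member probes. The matching share over all tested probes was not taken, so nothing about the members is read from this count. Number 3 lay beyond the other arrays in the same direction in all 3 genotypes at 2 of 7 probes, Gdf6 upwards and Nog downwards. The share of all tested probes was 15.1% for this second measure.

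Genotype differences at number 3 were set against those at the other numbers in an interaction, added after these same differences were seen. A single array stands for each genotype at number 3, WT 3 goes against its label, and the spread is that of the other numbers, so the SE and p cannot tell number 3 apart from 1 odd array. The values are a description. Het against WT at number 3 differed from the same at the other numbers by 4.84 at Gdf6 (SE 0.64, limma adjusted p = 0.00644), by −5.16 at Bmp6 (SE 0.95, limma adjusted p = 0.0238; Het 3 not well above background) and by 1.35 at Bambi (SE 0.27, limma adjusted p = 0.0301), beside 4.21% of all tested probes called. KO against WT differed by 1.20 at Bambi (SE 0.27, limma adjusted p = 0.0254), beside 11.1%, and for KO against Het 0 of 7 member probes were called by limma and 3 had an unadjusted p under 0.05, beside 1.29%.

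**Figure D3:**
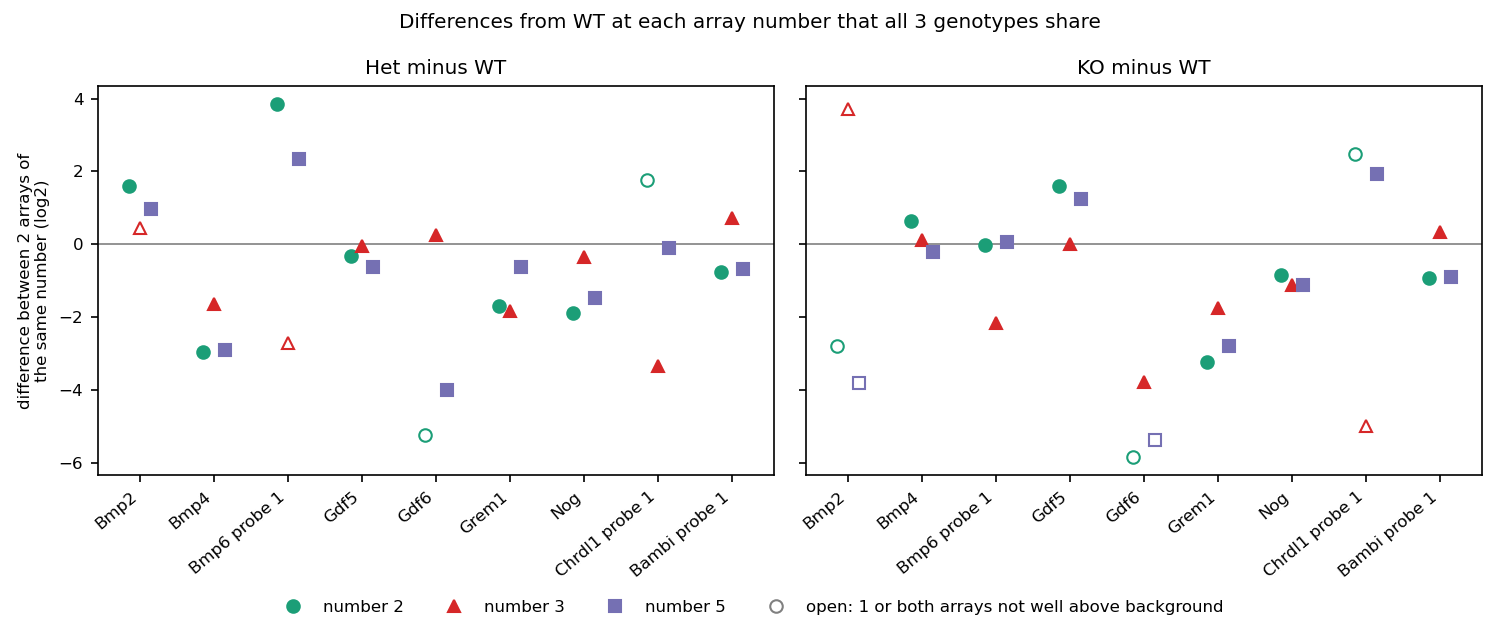
Difference between 2 arrays of the same number (log2), Het minus WT and KO minus WT, at numbers 2, 3 and 5, which all genotypes share, with a triangle for number 3 and open symbols where 1 or both arrays were not well above background, so that the size is not exact. At number 3 Bmp2 is 3.72 higher in KO and Chrdl1 4.99 lower, where numbers 2 and 5 point the other way.

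Genes that BMP signals are known to switch on were lower in Het on balance. Of 16 listed target genes, all tested, 12 were lower in Het than in WT, with a median of −0.78 beside 0.02 over all probes. By limma 0 were called, and the unadjusted p was under 0.05 at 5, including Dlx5, which was higher (1.54, SE 0.38). In KO against Het 12 were higher, with a median of 0.87 beside 0.00. There 0 were called by limma and the unadjusted p was under 0.05 at 7, including Gata2, which was lower (−0.60, SE 0.21). Both comparisons share the Het arrays. Without scaling between arrays the medians were −1.02 and 1.13 beside −0.21 and 0.25 over all probes. Without number 3, 5 targets fell in Het (Id2, Id4, Smad6, Dlx2 and Atoh8) and 1 rose (Dlx5), while 6 were higher in KO than in Het (Id2, Id3, Id4, Smad6, Msx2 and Atoh8) and 0 lower, by limma and beside 10.2% and 7.82% of all tested probes called. In KO against WT, Id4 (−1.53, limma adjusted p = 0.0113), Dlx2 (−1.47, limma adjusted p = 0.0142) and Gata2 were also called lower without number 3. Id3 (1.23, limma adjusted p = 0.0456) and Alpl were called higher there, beside 15.4% of all tested probes called. These names were taken after their values were seen.

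Id2, an inhibitor of basic helix-loop-helix factors, showed the pattern array by array. WT arrays read 2.04, 0.98, 2.35 and 0.53. Het arrays read −0.40, 2.58, −0.77 and −0.70. KO arrays read 2.14, 3.26, 2.34 and 2.20. Het number 3 stood among the WT and KO arrays and the other 3 Het arrays stood below every other array. Without number 3 Het was below WT by 1.81 (limma adjusted p = 0.0117) and KO above Het by 2.85 (limma adjusted p = 0.00130). Id3 was lower in those Het arrays too, at 2.07 to 2.66, against 2.74 to 4.09 in WT and 4.39 to 4.88 in KO. Id1 did not show the pattern, since WT 5, at 0.78, lay among those Het arrays, at 0.71 to 0.91. For Id1, Het against WT was −0.76 (SE 0.77, limma adjusted p = 0.668), and −1.28 without number 3 (SE 0.81, limma adjusted p = 0.371).

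With all 12 arrays 2 target genes were called in KO against WT. Alpl (Akp2 on the array), the alkaline phosphatase of mineralising cells, rose by 1.72 (SE 0.36, limma adjusted p = 0.0442) and was well above background on 7 of 12 arrays, including all 4 of KO. Gata2, a zinc finger transcription factor, fell by 1.11 (SE 0.21, limma adjusted p = 0.0286), from 1.05 to 1.56 in WT to −0.36 to 0.51 in KO. Both calls were lost with slide as a block (limma adjusted p = 0.145 for Alpl and 0.0543 for Gata2) and without scaling (limma adjusted p = 0.150 and 0.0939), and that of Alpl also with quantile scaling (limma adjusted p = 0.104) and normexp (0.91, limma adjusted p = 0.214). Msx2, a homeobox gene of skull and limb, was 1.33 higher (SE 0.66, limma adjusted p = 0.347).

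**Figure D4:**
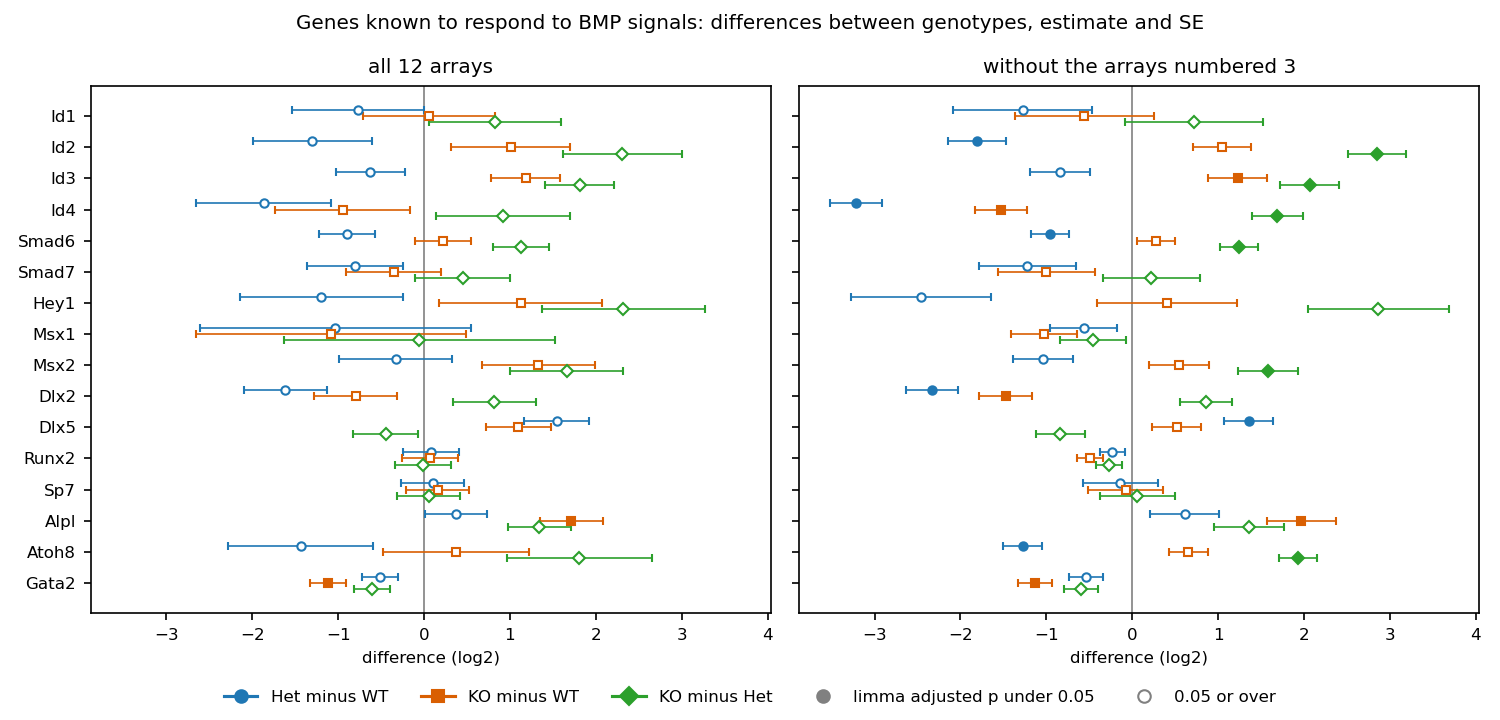
Differences between genotypes (log2) with their SE at 16 genes known to respond to BMP signals, with all 12 arrays on the left and without the arrays numbered 3 on the right, filled where the limma adjusted p was under 0.05. Blue points for Het minus WT lie below 0 at 12 of 16 genes on the left, and green points for KO minus Het above 0 at 12.

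Among 17 other antagonists and modulators, 13 were tested. Without number 3, Bmper, Fst, Crim1 and the protease gene Tll1 were called lower in Het than in WT by limma, beside 10.2% of all tested probes called. Bmper, which encodes a secreted BMP-binding modulator, differed by −2.19 there (SE 0.24, limma adjusted p = 0.00102), and Fst, which encodes the activin and BMP antagonist follistatin, by −4.02 (SE 0.63, limma adjusted p = 0.00588). With all 12 arrays these were −1.62 (SE 0.46, limma adjusted p = 0.125) and −3.23 (SE 0.81, limma adjusted p = 0.0854). Over the list the median difference was −0.16 in Het and −0.02 in KO against WT. Tll1, which encodes a protease that cleaves the antagonist chordin, was 2.22 lower in KO with all arrays (SE 1.03, limma adjusted p = 0.317). Without number 3, Tll1 (−3.55, limma adjusted p = 0.00573) and Bmper (−1.01, limma adjusted p = 0.0233) were also called lower in KO than in WT. Fst and Crim1 were not, and 15.4% of all tested probes were called there.

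Of 11 receptors and co-receptors 10 were tested, and the median differences were 0.11 in Het and −0.13 in KO against WT. Eng, the co-receptor endoglin, was the 1 called, lower in KO by 2.53 (SE 0.54, limma adjusted p = 0.0446). It read 0.53, −1.15, −2.86 and −1.0 in WT and −3.94 to −3.09 in KO, with no overlap. The call was lost with slide as a block (−2.05, limma adjusted p = 0.140), with normexp (−1.92, limma adjusted p = 0.138) and without scaling (limma adjusted p = 0.0565). Acvrl1, the type I receptor that works with endoglin, was 3.32 lower (SE 0.75, limma adjusted p = 0.0540). Without number 3, Eng, Acvrl1 and Bmpr1b, a type I receptor of the GDF5 branch, were called lower in KO than in WT. Eng (−2.42, limma adjusted p = 0.00762) and Acvrl1 (−2.40, limma adjusted p = 0.0372) were also called lower in Het than in WT. The shares of all tested probes called were 15.4% in KO and 10.2% in Het against WT. The type II receptor gene Bmpr2 differed by 0.10 in KO and 0.06 in Het against WT, neither called.

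Of 14 other ligands 6 were tested and 0 were called in any genotype comparison by limma with all arrays (unadjusted p under 0.05 at 2 in each). Without number 3 Bmp8a and Bmp8b were called lower and Gdf1 higher in both Het and KO against WT, and Gdf11 higher in KO. Of all tested probes, 10.2% were called in Het and 15.4% in KO against WT there. Bmp3, which opposes other BMPs in bone, was 2.12 lower in KO than in WT (SE 0.66, limma adjusted p = 0.146), and Gdf1 was 0.76 higher (SE 0.54, limma adjusted p = 0.542). All 15 SMADs and regulators were tested, with 0 called by limma with all arrays (unadjusted p under 0.05 at 4 in Het against WT, 1 in KO against WT and 3 in KO against Het) and medians of −0.06 in Het and 0.06 in KO against WT. Without number 3, 2 were called in Het against WT (Smad5 and Ctdsp2, up), 3 in KO against WT (Smad5 up, Smurf1 and Ppm1a down) and 1 in KO against Het (Ctdsp2, down). The shares of all tested probes called there were 10.2%, 15.4% and 7.82%, and nothing is read from these counts. Smad5, which carries the BMP signal, was 0.60 higher in KO with all arrays (SE 0.14, limma adjusted p = 0.0542), and without number 3 it was 0.64 higher in Het (limma adjusted p = 0.0236) and 0.69 in KO (limma adjusted p = 0.0136). With all arrays Tab1 (Map3k7ip1 on the array), an adaptor of a parallel kinase branch, was 0.48 higher in KO (SE 0.28, limma adjusted p = 0.427).

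Markers of cell types were read on the same arrays. All 10 fibroblast markers were well above background on all 12 arrays, with summed levels of 8.73 to 9.41. Thy1, a fibroblast surface protein, was called lower in KO than in WT (−3.47, SE 0.30, limma adjusted p = 0.000965) and than in Het (−2.16), as was Dcn against Het (−3.21). Without number 3 Thy1 was also called lower in Het than in WT (−1.62, limma adjusted p = 0.00251). Col3a1 was called higher there (1.18, limma adjusted p = 0.0216), beside 10.2% of all tested probes called. Of 5 tested osteoblast markers, Alpl was the 1 called, higher in KO than in WT. The others overlapped between KO and WT. Mean levels of Spp1, Bglap (Bglap1 on the array) and Phex were lower in KO, and Sp7 was 0.16 higher. Spp1 read 2.45 to 6.97 in WT and 4.40 to 4.76 in KO. Of 7 listed mesothelial markers 5 were tested, and Wt1 and Lrrn4 were well above background on 0 arrays. Krt8 was called higher and Upk3b lower in Het against WT. Krt8 was well above background on 1 of 4 WT arrays (3.36, a size that rests on signals near background). Upk3b was so on 0 of 4 Het arrays and was at least 2.51-fold lower there. The Alpl call was lost as given above, and those of Krt8 and Upk3b were lost with slide as a block (limma adjusted p = 0.124 and 0.109) and with normexp (limma adjusted p = 0.121 and 0.431). Endothelial and macrophage markers, 2 tested of 5 in each list, had 0 called by limma (unadjusted p under 0.05 at 1 endothelial gene in each of Het and KO against WT, and at 0 macrophage genes), and their defining genes Pecam1 and Ptprc were well above background on 0 of 12 arrays.

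For each tested member the probes with the highest Pearson's r over the 12 arrays were listed among 18723 named probes, with r over the 9 arrays not numbered 3 beside it. These are descriptions, and the arrays share genotype, number and scaling. Bmp4 was most like Tenm3 (Odz3 on the array; r = 0.985 and 0.988), Amigo2 (0.939 and 0.959) and Eya4 (0.935 and 0.965). Tenm3 itself had mean levels of 1.15 in WT, −1.98 in Het and 2.02 in KO. Gdf6 was most like Lbh (0.956 and 0.972) and Ctnnd2 (0.922 and 0.986), and Grem1 like Wnt9a (0.956 and 0.962) and Ppp1r2 (0.929 and 0.946). The nearest gene was Il1rl2 for Bmp6 (0.953 and 0.937), Upb1 for Gdf5 (0.954 and 0.966), Tsr1 for Nog (0.938 and 0.933) and Rap2a for Bambi (0.938 and 0.934). Among the members, r over the 12 arrays was 0.75 for Bmp4 with Gdf5 and 0.73 for Gdf6 with Bambi.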

How the data were processed

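Per the labels' protocols, 500 ng of total RNA was labelled with Cy3 for each of 12 1-colour Agilent whole mouse genome arrays. Per the file headers and the submitters' processing notes (Agilent Feature Extraction 9.5), the authors extracted each spot's processed signal, a background-subtracted intensity on a linear scale, which is the deposited value used here. The deposited series table holds the same intensity, with a largest relative difference of 0.

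Control spots and outlier spots were left out, log2 spots of a probe were averaged and the array's 75th percentile subtracted. Every member probe was kept separately. For list genes the probe with the highest mean stood for the gene. limma 3.58.1 in R 4.3.3 fitted group means over all 12 arrays, with Benjamini-Hochberg adjustment over 25600 probes, and was checked on simulated data. Single probes were compared with exact two-sided permutation tests. Precision is limited by 4 arrays a genotype. Slide 4 held 4 arrays with 76.9 to 77.8% of probes well above background, against 59.7 to 64.8% on the others, so dim probes are read more easily there.

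The members and all lists (other ligands, other antagonists, receptors, SMADs, target genes and cell type markers) were chosen with earlier results of these data known. Named genes are the members, list genes called with all 12 arrays, the 2 tested genes of each pathway list with the largest KO against WT difference, and the 3 probes most like each member. A result for 1 list gene is not reported here. Genes called only without the arrays numbered 3, Id1, Id2, Bmpr2 and the markers were named after their values were seen. Gene names are the array's, updated through RefSeq tables of GRCm38.p6, and probe coordinates are the array files' on mm7, where no gene model was used. The main fit did not pair arrays by replicate number. Correlations of same-numbered deviations were −0.09 to 0.40. For number 3 they were 0.40 for WT with Het, 0.20 for WT with KO and 0.35 for Het with KO. WT 5 with KO 5 gave 0.30. Alternatives covered background, scaling, filter, probe choice, slide, number, array weights and leaving out arrays.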

Additional observations from a re-analysis of the deposited data

Results flagged for a closer look

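In 42 groups of 4 arrays (14 probes in 3 genotypes), 4 had an array far from the other 3, and all 4 such arrays were numbered 3. For normal values in independent groups chance gives about 1 in 20 groups. These groups were not independent, since both Chrdl1 probes were flagged on the same array. The share over all tested probes was not taken, so nothing about the members is read from this count. Bmp2 was at −6.93 on Het replicate 3, against −3.85 to −3.47 on the other Het arrays, and at −3.66 on KO replicate 3, against −8.26 to −7.85. Chrdl1 was at −7.16 on KO replicate 3 at its brighter probe, against −3.33 to −2.90, and at −8.50 at its dimmer probe, against −5.65 to −5.13.

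Genotype differences at number 3, 1 array a genotype, were set against those at the other numbers in an interaction added after they were seen, on members chosen from these data. With WT 3 against its label and the spread taken from the other numbers, these values describe the arrays and cannot tell number 3 apart from 1 odd array. Het against WT was 0.26 at number 3 and −4.58 at the other numbers for Gdf6 (difference 4.84, SE 0.64, limma adjusted p = 0.00644). For Bmp6, with Het 3 not well above background, it was −2.73 and 2.44 (difference −5.16, SE 0.95, limma adjusted p = 0.0238). For Bambi it was 0.72 and −0.64 (difference 1.35, SE 0.27, limma adjusted p = 0.0301), and KO against WT was 0.34 and −0.86 there (difference 1.20, SE 0.27, limma adjusted p = 0.0254).

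Probes outside the fit of all 12 arrays went opposite ways, and these differences were not tested. Bmp2 was 3.72 higher in KO than in WT at number 3 and −3.33 at the others, and against Het 3.27 and −4.48, where WT 3, Het 3 and the other KO arrays were not well above background. As bounds, KO was at least 5.67-fold above WT and at least 4.74-fold above Het at number 3. The dimmer Bmp6 probe was at −1.98 in Het against WT at number 3, where both arrays were not well above background and so have no order, and 2.05 at the others. The brighter Chrdl1 probe was at −4.99 in KO against WT at number 3 and 2.24 at the others. KO 3 was not well above background there, so KO was at least 17.1-fold lower than WT at number 3. The cause was not tested.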

How the results depend on the processing

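Bmp4 kept its direction and its call in 25 of 26 alternatives in both Het against WT (−2.83 to −2.12) and KO against Het (2.58 to 3.06), and lost it in the replicate block of numbers 2, 3 and 5. Gdf6 in KO against WT kept its direction in 26 and its call in 11. The 26 include the deposited series table, which repeats the main values, and 12 fits that each leave out 1 array. They share most of their data, so these counts are not independent support. Of the 7 tested member probes, 1 was called in each comparison. Without the arrays numbered 3 the count was 6 in each genotype comparison (of 11), and with number 3 as a covariate 2 in each. Array weights gave 7, 5 and 4 in Het against WT, KO against WT and KO against Het, and 2 in number 3 against the others. Leaving out 1 array gave 1 to 3, 0 to 3, 1 to 4 and 0 to 2. KO against WT had 0 called with normexp, without scaling, without the filter on dim probes, with slide as a block and with KO replicates 4 and 5 averaged. Number 3 against the others had 0 with normexp and without the filter, and with slide as a block its 1 call was Nog in place of Gdf6. The replicate block of all 12 arrays gave 1 in each genotype comparison, and that of numbers 2, 3 and 5 gave 0.

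Differences near 0 changed sign. Gdf5 in number 3 against the others (−0.01) was 0.017 with quantile scaling, 0.15 without scaling, 0.36 with slide as a block and 0.44 with array weights, and −0.42 to 0.58 leaving out 1 array. Nog in KO against Het (0.04) was −0.032 with quantile scaling, −0.11 with slide as a block, −0.018 with array weights and −0.012 with KO 4 and 5 averaged, and −0.25 to 0.43 leaving out 1 array. Bambi in number 3 against the others (0.00) was −0.21 with slide as a block and −0.25 to 0.43 leaving out 1 array, and Bmp4 (0.26) −0.10 to 0.55. Dim probes are limited by signal over background. The cause of these changes was not tested.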
